A study of Arabidopsis thaliana with 6 samples.

Results

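MUTE-GFP was located in chromatin of whole Arabidopsis thaliana seedlings, and the regions at the 10 ends of chromosomes 1 to 5 are described here. The peak lists of 3 immunoprecipitated (IP) replicates were joined, and overlapping or touching peaks were merged. A merged region was kept where all 3 lists contributed a peak, and it was assigned to a chromosome end where its midpoint lay in the first or the last 2 Mb of the chromosome. The rule kept 1519 regions, 25.5% of the 5957 regions found in every replicate (95% Wilson interval 24.4 to 26.6%), on 16.8% of the length of the 5 chromosomes. The other 4438 regions form the chromosome interior. The left end is the side where coordinates begin. Only position and presence in every list chose the regions, so the rule set no threshold on density, pileup or width. Presence needs a called peak in each list, so it is not independent of peak strength or width.

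All plants were homozygous for proMUTE::MUTE-GFP, in which the MUTE promoter drives MUTE fused to GFP, in the scrm-D mutant background, and entire seedlings were taken 2 days after germination. The series holds 6 samples, 3 IP samples precipitated with an antibody against GFP and 3 input samples without antibody, numbered 1 to 3 in each kind. Each replicate was grown from 60 mg of seed. There is one group of plants, and no IP from plants lacking the fusion protein enters the analysis, so regions that recur in every replicate can hold IP background as well as MUTE binding, and these cannot be told apart. Nothing in the labels says whether replicates came from separate cultures, so the spread between them may be technical. Lists were compared only within each replicate or as ratios, because the IP libraries held 20173429 to 30075453 fragments after duplicate removal and the lists 7710 to 12388 peaks on chromosomes 1 to 5.

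MUTE belongs to the basic helix-loop-helix (bHLH) family of DNA-binding proteins and works in the stomatal lineage. It acts with the bHLH protein SCREAM (SCRM), ends the asymmetric divisions of meristemoids and commits them to the guard mother cell state, after which a last symmetric division gives the paired guard cells. The scrm-D allele is a dominant form of SCRM. Arabidopsis chromosomes have gene-rich arms and heterochromatic, gene-poor surroundings of the centromeres. The left arms of chromosomes 2 and 4 are short, so that their outer part lies near the centromere, and both carry arrays of ribosomal RNA genes near the left tip.

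The first comparison asked whether MUTE regions were as dense at the ends as elsewhere. The ends held 75.95 reproducible regions per Mb and the interior 44.8, a ratio of 1.70. The same was seen in each list before any merging. Replicate 1 had 162 peaks per Mb at the ends and 92.2 in the interior, replicate 2 had 136 and 81.6, and replicate 3 had 97.3 and 58.1. The ratio was 1.76, 1.67 and 1.67 in replicates 1, 2 and 3, or 1.70 ± 0.0519 (SD, n = 3). The ends were denser in 3 of 3 replicates, and an exact two-sided sign-flip permutation test over replicates gave p = 0.25, the smallest that 3 replicates allow. Peaks covered 16.9%, 15.4% and 9.88% of the bases at the ends and 8.94%, 8.53% and 5.74% in the interior, so the ratio of covered bases was 1.80 ± 0.0837 (SD, n = 3). A merged region was about as likely to be found in every replicate at the ends (42.9%, 1519 of 3543, 95% Wilson interval 41.3 to 44.5%) as in the interior (42.0%, 41.1 to 43.0%). Over all merged regions the share was 42.2%, and this share is part of the rule, so nothing is read from it.

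**Figure D1:**
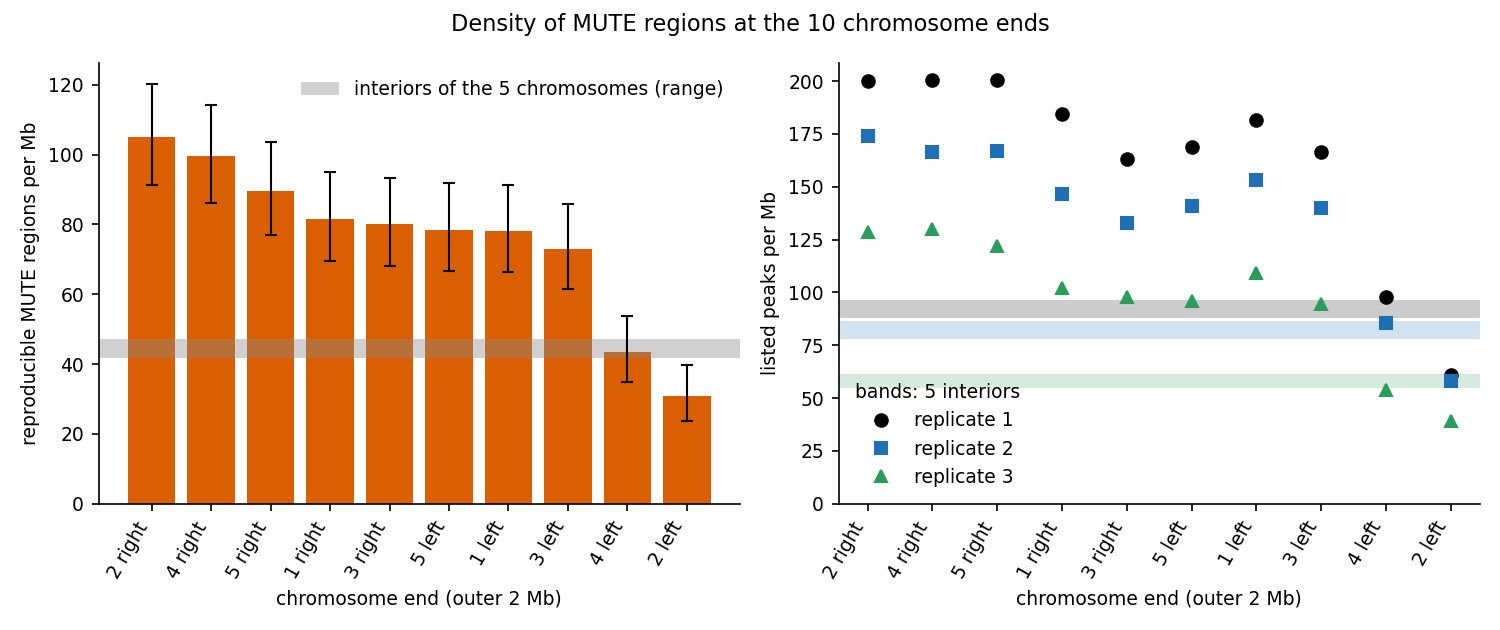
Left, reproducible MUTE regions per Mb at each chromosome end (bars) with exact 95% Poisson intervals, which cover counting error only, and the range over the 5 chromosome interiors (grey band). Right, listed peaks per Mb at the same ends in each replicate (points), with the range over the 5 interiors as bands of the same colour. All ends other than the left ends of chromosomes 4 and 2 stand above the interiors in every list.

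The 10 ends differed from each other by a factor of 3.39. The right end of chromosome 2 was the densest, with 210 regions, and the left end of the same chromosome the sparsest, with 62. The right ends of chromosomes 4 and 5 followed with 199 and 179 regions. Next came the right ends of chromosomes 1 and 3 with 163 and 160, and the left ends of chromosomes 5, 1 and 3 with 157, 156 and 146. On the left of chromosome 4 there were 87. The mean over ends was 75.95 ± 22.9 regions per Mb (SD over the 10 ends). Without the left ends of chromosomes 2 and 4 it was 85.6 ± 11.3 over the remaining 8, which ranged from 73 to 105. The 5 right ends held 911 regions and the 5 left ends 608. Right ends ranged from 80 to 105 regions per Mb, and the left ends of chromosomes 1, 3 and 5 from 73 to 78.5. These groups did not overlap in reproducible regions, but they did in the listed peaks of every replicate. There the left end of chromosome 1 held 363, 306 and 218 peaks in replicates 1, 2 and 3. The right end of chromosome 3 held fewer, 326, 266 and 196. The ends are positions that exist once, and no test was made.

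Because the lists differ in length, the ends were ordered by their share of each list. The right ends of chromosomes 2, 4 and 5 held 3.08 to 3.37% of a list each, and their ranges over replicates overlapped, so the data give no order among them. The right ends of chromosomes 1 and 3 and the left ends of chromosomes 1, 3 and 5 held 2.45 to 2.98%, below those ranges in every replicate. Within this middle group the left end of chromosome 1 (2.83 to 2.93%) stood above the left ends of chromosomes 3 and 5 and the right end of chromosome 3, and the right end of chromosome 1 (2.65 to 2.98%) overlapped the 3 left ends but not the right end of chromosome 3 (2.46 to 2.63%). Below them was the left end of chromosome 4 with 1.58%, 1.58% and 1.40% in replicates 1, 2 and 3. The left end of chromosome 2 held 0.985%, 1.07% and 1.01%, the lowest in every list.

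Set against the interior of their own chromosome, 8 of 10 ends had more regions per Mb. The right end of chromosome 2 had the largest ratio, 2.34, and the right end of chromosome 4 followed with 2.25. On the left of chromosome 2 the density was below the interior in every list, with a ratio of 0.691 for reproducible regions. On the left of chromosome 4 it was close to the interior, with a ratio of 0.982 for reproducible regions and of 1.09, 1.06 and 0.969 for the peaks of replicates 1, 2 and 3. Its direction therefore differed between replicates.

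Regions became sparser with distance from the tip. The first Mb held 870 regions over the 10 ends, or 87.0 per Mb, and the second 649, or 64.9 per Mb. Replicate 1 had 1814 peaks in the first Mb and 1435 in the second, replicate 2 had 1545 and 1184, and replicate 3 had 1116 and 830. The outer Mb exceeded the inner Mb by a factor of 1.26, 1.30 and 1.34 in the same order, and it held more regions in all ends other than the right end of chromosome 1, where it held 80 against 83. In steps of 250 kb the density was 91.6 regions per Mb at the tip, 97.6 in the next step, 84 in the third, 74.8 in the fourth and 60.4 to 68.4 from there to 2 Mb. Beyond the ends it was level at 61, 58.5 and 61.4 regions per Mb between 2 and 5 Mb from the nearer tip, and it was 43 to 47.1 between 5 and 9 Mb. There was no drop at the threshold itself, since the last 250 kb inside held 151 regions and the first 250 kb outside held 182. The innermost end region, at chr1:28425204-28431876, had pileups of 366, 232 and 187 in replicates 1, 2 and 3, and the first region outside, at chr3:2000223-2000766, had 132, 194 and 180.

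**Figure D2:**
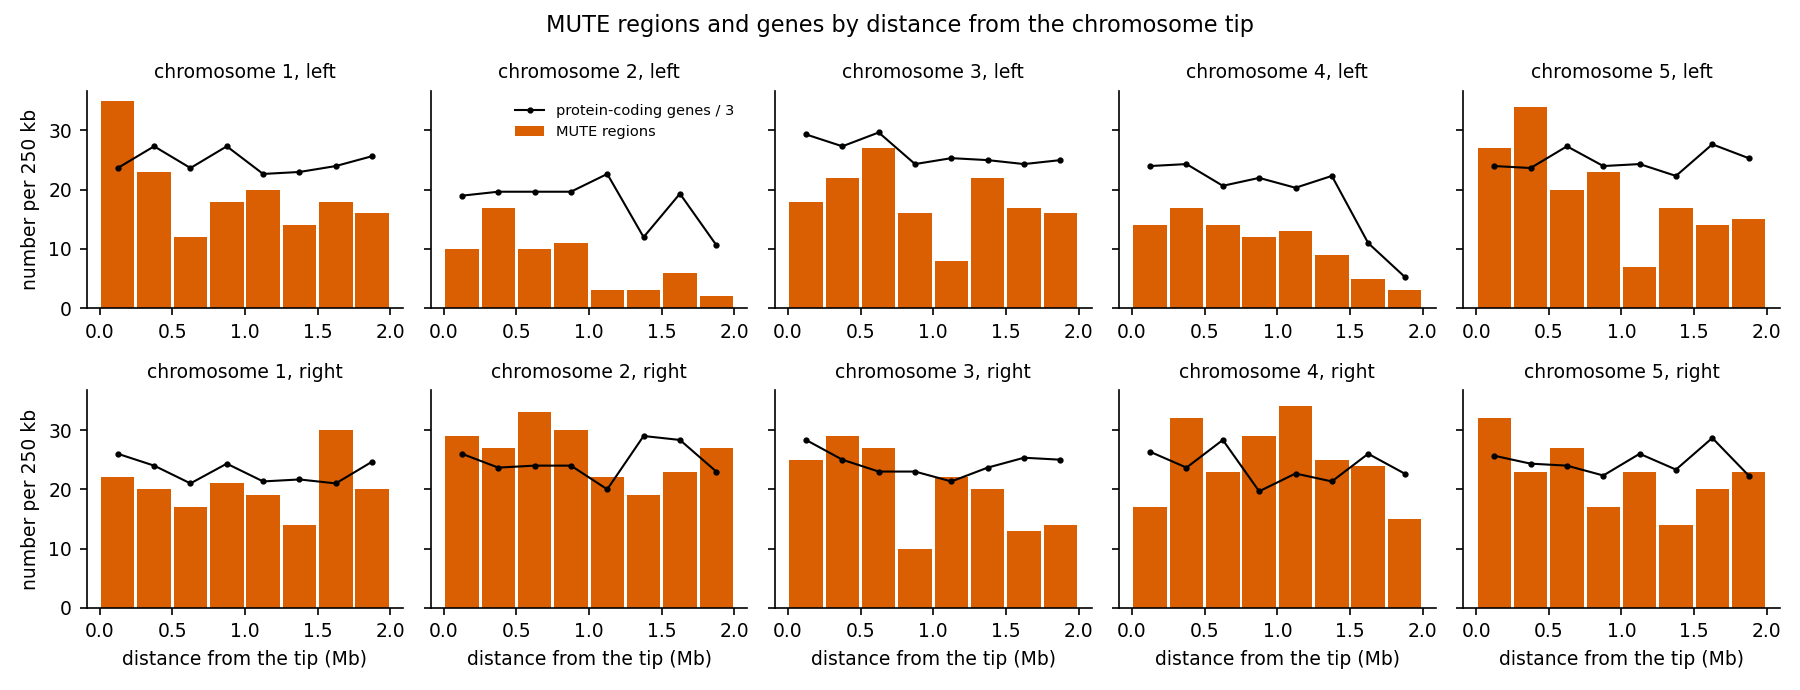
Reproducible MUTE regions (bars) and protein-coding genes divided by 3 (line) in steps of 250 kb from the tip, for each of the 10 chromosome ends. In the last step the left ends of chromosomes 2 and 4 hold 2 and 3 regions, and other ends keep 14 or more there.

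Within single ends the pattern varied. Chromosome 1 was densest on the left at its tip, with 35 regions in the first 250 kb, and the left end of chromosome 5 in its second step, with 34. The right end of chromosome 4 had only 17 regions at the tip and its highest number, 34, in the step that starts at 1000 kb. On the left end of chromosome 2 the first 4 steps held 10, 17, 10 and 11 regions and the next 4 held 3, 3, 6 and 2. On the left end of chromosome 4 the numbers fell from 14 at the tip to 3 in the last step, where the gene table lists 16 protein-coding genes against 72 at the tip. Both short-arm ends also held the widest stretches without a reproducible region, 236 kb on chromosome 2 and 303 kb on chromosome 4. In the other ends the widest stretch between neighbouring midpoints was 45.5 to 100.1 kb, and the median distance between neighbours was 6.20 to 8.93 kb.

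Gene number was set beside these densities, since genes are also unevenly spread. The ends held 5589 protein-coding genes, 279 per Mb, and the interior 21855, 220 per Mb. Per 100 protein-coding genes there were 27.2 reproducible regions at the ends and 20.3 in the interior, a ratio of 1.34. The pooled difference was therefore smaller per gene than per Mb and had the same direction. By distance from the tip, the first Mb held 29.98 regions per 100 genes and the second 24.15. From 2 to 5 Mb the steps of 1 Mb held 24.01, 24.34 and 26.26, and those from 5 to 9 Mb held 17.74 to 19.32. Per gene, only the first Mb of the ends thus stood above the adjoining interior, and the second Mb did not. Against interior bins of 1 Mb with at least 200 genes the ratio per Mb was 1.37. Per 100 genes, the ends ranged from 14.5 on the left of chromosome 2 and 19.3 on the left of chromosome 4 to 34.8 and 35.4 on the right of chromosomes 4 and 2. The 5 interiors lay between 18.6 and 21.4, and the other 8 ends between 23.1 and 35.4, above all of them. The part of gene number in the density was not tested further.

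The ends were also set beside interior bins with like numbers of genes. Among 1 Mb segments holding 280 to 310 protein-coding genes, a range chosen after the values were seen, 7 were the first Mb of an end and had 80 to 119 regions (median 99). In the same range 22 interior bins had 49 to 78 regions (median 67), so the values did not overlap in this range, 80 against 78 at the closest. With 260 to 310 genes they did overlap, with 57 to 119 regions (median 95) in 8 first-Mb segments and 47 to 92 (median 65) in 42 interior bins. The highest of these bins, on chromosome 1, held 92 regions with 267 genes. In the narrower range the 6 segments that were the second Mb of an end had 53 to 91 regions (median 68.5) and overlapped the interior bins. Bins that cross the threshold of 2 Mb, partly end and partly interior, were left out of the interior bins. In the narrower range such bins held 65 to 84 regions, so the gap of 80 against 78 depends on leaving them out.

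**Figure D3:**
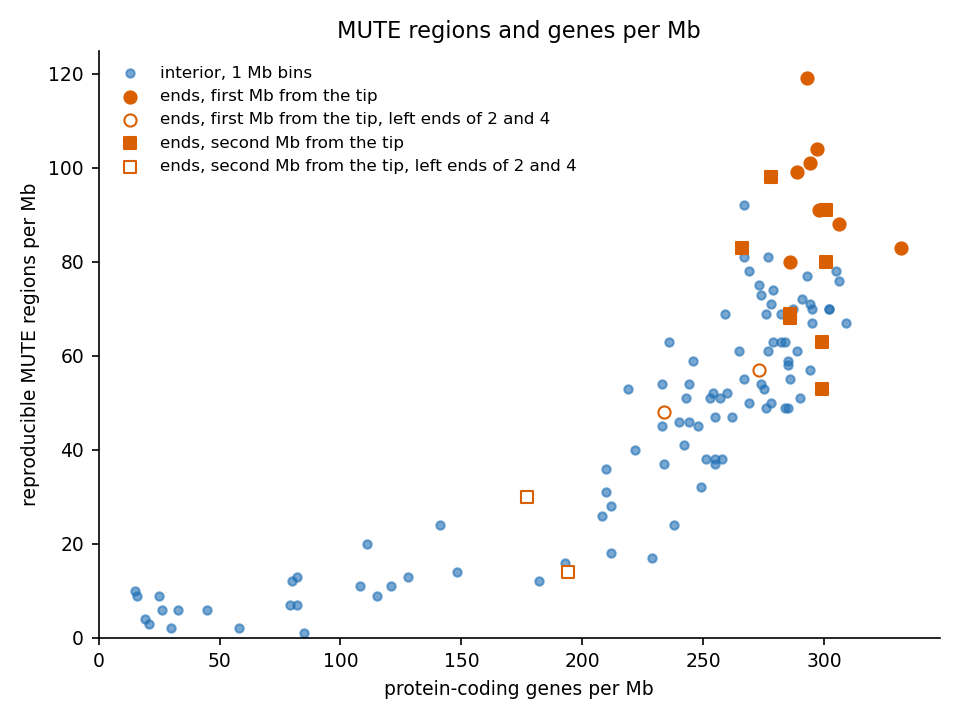
Reproducible MUTE regions against protein-coding genes per Mb, for interior 1 Mb bins (blue), the first Mb (orange circles) and the second Mb (orange squares) of each end, with open symbols for the left ends of chromosomes 2 and 4. Bins that cross the threshold of 2 Mb are left out. At 280 to 310 genes the first Mb of the ends lies at 80 to 119 regions and the interior bins at 49 to 78, and interior bins with fewer genes reach 92.

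More genes at the ends had a region close by. A reproducible region lay within 1 kb of 41.4% of protein-coding genes at the ends (2316 of 5589, 95% Wilson interval 40.2 to 42.7%), of 29.1% in the interior (28.5 to 29.7%) and of 31.6% of all 27444 genes. By end the share went from 17.5% on the left of chromosome 2 to 51.9% on the right of the same chromosome. The mean summit fell inside a protein-coding gene in 49.8% of regions at the ends (47.3 to 52.3%) and 49.1% in the interior (47.6 to 50.6%). Inside a gene or within 1 kb of one lay 88.2% of summits at the ends (86.4 to 89.7%) and 84.5% in the interior (83.4 to 85.6%), so the share near genes was higher at the ends and the share inside genes was not clearly so. The median distance from summit to the nearest gene edge was 261 bp at the ends and 281 bp in the interior. The ends also hold more genes, 279 per Mb against 220, and the share of all positions within 1 kb of a gene was not computed. The higher share near genes and the shorter distance are therefore not read as traits of the regions. The gene table gives no strand, so gene starts were not told from gene ends.

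Regions at the ends were not taller than the others. Pileup counts how many IP fragments overlap at a peak's highest point, the summit. Its median at the ends and in the interior was 184 and 185 fragments in replicate 1, 145 and 150 in replicate 2, and 122 and 126 in replicate 3. The ratio was 0.977 ± 0.0157 (SD, n = 3), slightly lower at the ends in 3 of 3 replicates (exact two-sided sign-flip permutation test, p = 0.25, the smallest possible). Against the next 2 Mb inward alone the ratio was 1.01, so the direction depended on which interior was used. Median fold enrichment over the local input background was 2.31 at the ends and 2.26 in the interior in replicate 1, 2.61 and 2.67 in replicate 2, and 2.07 and 2.11 in replicate 3. Its direction differed between replicates (ratio 0.992 ± 0.0237, SD, n = 3, exact p = 0.5). A fold enrichment of at least 3 in every replicate was reached by 292 regions at the ends, 19.2% (17.3 to 21.3%), and by 19.6% in the interior (18.5 to 20.8%), against 19.5% over all reproducible regions.

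Among the ends the median pileup varied by a factor of 1.08, 1.22 and 1.15 in replicates 1, 2 and 3. In replicate 1 it lay between 178.5 and 192 fragments. Replicate 2 gave 139 to 170, and replicate 3 gave 116 to 133.5. In 5 ends it was below that of the chromosome's own interior in every replicate, and in the other 5 the replicates disagreed. The left end of chromosome 4 had the highest median fold enrichment in every replicate, 2.45, 3.19 and 2.24, against 2.28, 2.58 and 2.08 in its interior. Its median background was the lowest of the 10 ends at 74.5, 52.4 and 55.0 fragments, and 25 of its 87 regions (28.7%) reached a fold enrichment of 3 in every replicate. The part of the lower background in the higher fold enrichment was not tested. The left end of chromosome 2 was the only other end with a higher fold enrichment than its interior in all 3 replicates, by a factor of 1.01 to 1.03.

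Regions at the ends were wider. The median merged width was 1463 bp at the ends and 1253 bp in the interior, a ratio of 1.17. Counting only bases under a replicate's own peaks, a region covered 1192 bp at the ends and 997 bp in the interior in replicate 1, 1177 and 1019 bp in replicate 2, and 858 and 770 bp in replicate 3. The ratio of 1.15 ± 0.0407 (SD, n = 3) was above 1 in 3 of 3 replicates (exact two-sided sign-flip permutation test, p = 0.25, the smallest possible). Merging neighbours widens regions where peaks are dense, and 78.6% of regions at the ends had a single peak of each replicate against 82.9% in the interior. In these single-peak regions the ratio of peak length was 1.11 ± 0.0398 (SD, n = 3). The difference was present across the distribution, with the quantile at 0.1 at 710 bp for the ends and 651 bp for the interior and the quantile at 0.9 at 3603 and 3299 bp. A width of 3 kb or more was found in 15.7% of regions at the ends (13.9 to 17.6%) and 11.9% in the interior (11.0 to 12.9%).

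**Figure D4:**
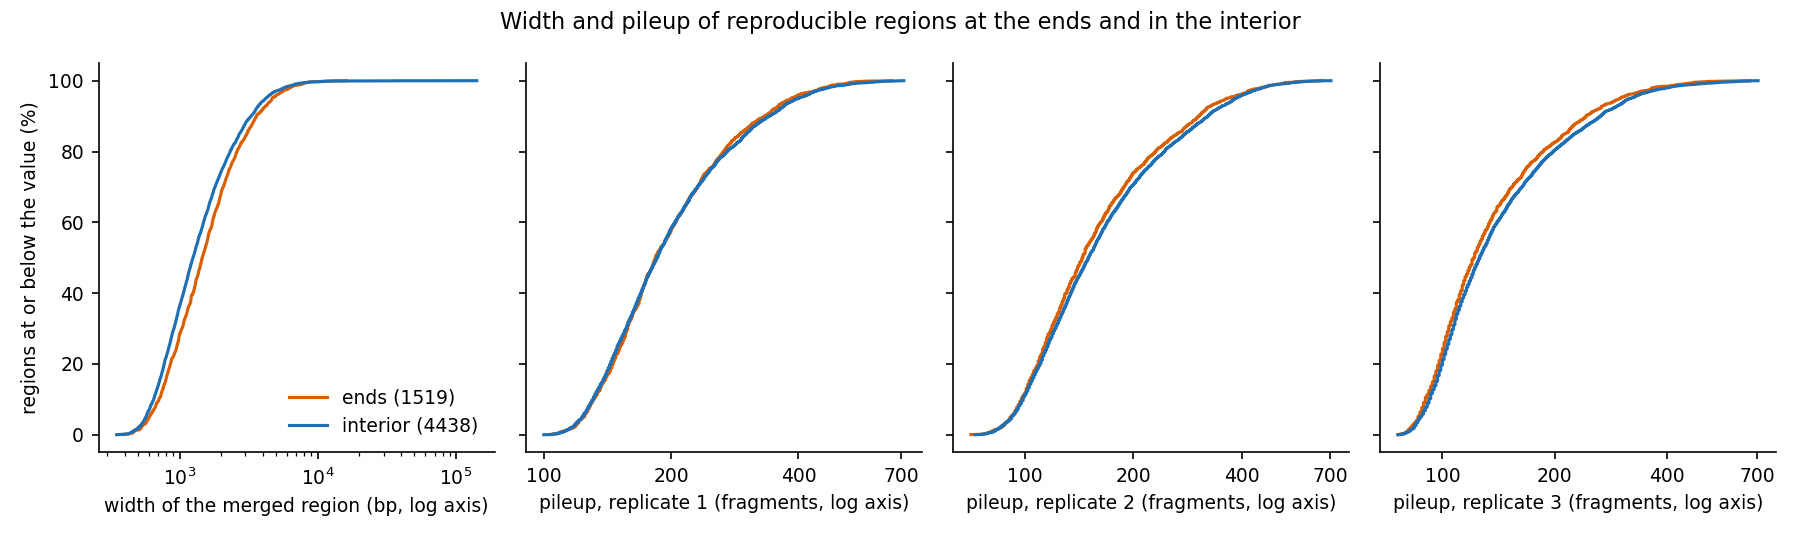
Cumulative share of reproducible regions by width of the merged region (first panel) and by pileup in replicates 1, 2 and 3, for 1519 regions at the ends (orange) and 4438 in the interior (blue), on log axes. The width curve of the ends lies to the right of the interior curve, and the pileup curves nearly coincide, with medians of 184 and 185 fragments in replicate 1.

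In 9 of 10 ends the median merged width exceeded that of the chromosome's own interior, from 1350 bp on the left of chromosome 3 to 1624 bp on the right of chromosome 5. The exception was the left end of chromosome 2, at 1118 bp against 1235 bp in its interior. The same 9 against 1 was found for the bases covered in every replicate. Summits were placed a little less exactly at the ends. In single-peak regions the median distance between the summits of replicates 1 and 2 was 59 bp at the ends and 50 bp in the interior, between replicates 1 and 3 it was 63 and 54 bp, and between replicates 2 and 3 it was 50 and 46 bp.

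The ends' share of the strongest regions depended on the measure. When regions were ranked by mean log2 fold enrichment, 33 of the top 100 lay at the ends (95% Wilson interval 24.6 to 42.7%), and the interval held the 25.5% of all reproducible regions that the ends contain. Ranked within single replicates, 32, 32 and 29 of the top 100 lay there in replicates 1, 2 and 3. Of the top 50 the ends held 19 (25.9 to 51.8%), and of the top 10 they held 7 (39.7 to 89.2%), but 4, 5 and 5 when ranked within replicates 1, 2 and 3. Of the top 1000 they held 24.8% (22.2 to 27.6%). By pileup divided by the kept fragments of each library they held 22 of the top 100, 21.0% of the top 500 (17.7 to 24.8%, below their share of all regions) and 23.7% of the top 1000 (21.2 to 26.4%). Peaks with a local background over 3 times that of the whole genome were kept in this ranking. Replicates 1, 2 and 3 had 63, 51 and 74 of these in the interior and 2, 3 and 2 at the ends. Their part in the pileup shares was not tested. By width the ends held 68 of the top 200 (27.8 to 40.8%) and 29.3% of the top 1000 (26.6 to 32.2%), above their share of all regions. These intervals cover counting error only, and width was not ranked within single replicates. Among the 33 regions of the fold enrichment ranking, the right end of chromosome 1 supplied 7, the right ends of chromosomes 2 and 4 supplied 6 each, and the left ends of chromosomes 3 and 5 none.

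**Figure D5:**
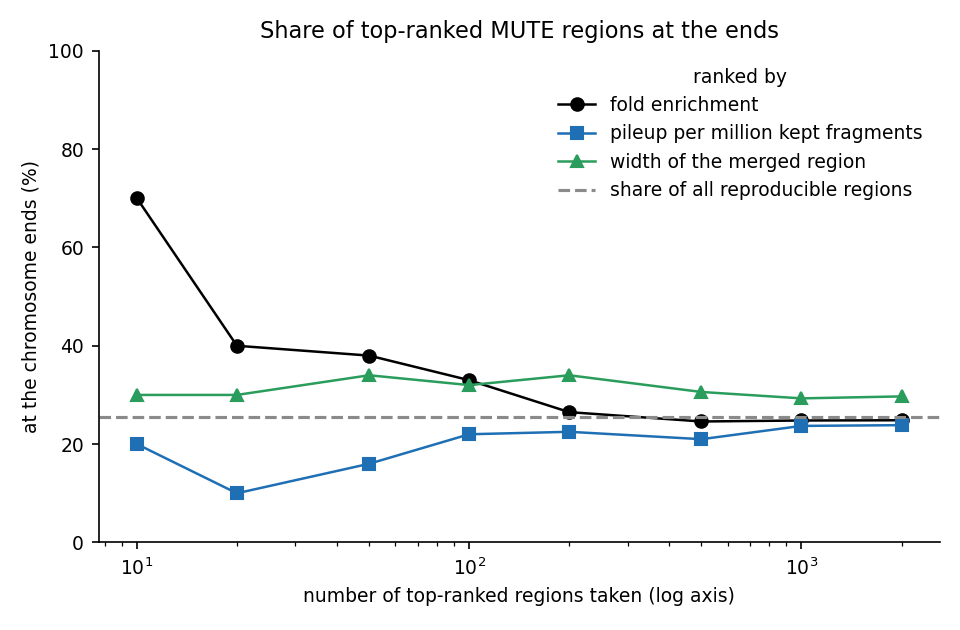
Share of the top-ranked reproducible regions that lie at the chromosome ends, against the number of regions taken (log axis), ranked by fold enrichment, by pileup or by width. The dashed line marks the 25.5% of all reproducible regions at the ends. The fold enrichment curve falls from 70% of the top 10 to 24.8% of the top 1000, and the pileup curve stays between 10% and 23.9%.

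Each end was also described by its tallest region, the one with the highest mean log2 pileup after scaling to kept fragments. On the left of chromosome 3 this was the region at MUTE itself, chr3:1844580-1850063, which reached into the neighbouring MKP2, a gene for a MAP kinase phosphatase. Its pileup was 639, 624 and 613 fragments in replicates 1, 2 and 3 and ranked 10 among all reproducible regions. Summits lay 209, 107 and 75 bp from the edge of the MUTE gene. Its fold enrichment was only 2.49, 3.24 and 3.01, and the background there was 256, 192 and 203 fragments against end medians of 78.7, 54.1 and 57.2. The plants carry MUTE sequence in the transgene as well as in the MUTE gene, and fragments from the transgene and from the native locus cannot be told apart in these lists.

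On the left of chromosome 2 the tallest region was also the outermost one, at chr2:1046-10333, and it overlapped 2 ribosomal RNA genes, AT2G01010 and AT2G01020. Its pileup was 664, 662 and 667 fragments, the fifth highest of all reproducible regions. Its fold enrichment was 1.61, 1.97 and 1.64, rank 5286 of 5957, and its background 412, 336 and 406 fragments. At the ends 2, 3 and 2 peaks of replicates 1, 2 and 3 had a local background over 3 times that of the whole genome, against 63, 51 and 74 in the interior. The ribosomal region and the MUTE region accounted for 2 of them in every replicate, and the further one of replicate 2 lay at the right tip of chromosome 2.

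The tallest regions of the other 8 ends had backgrounds near the median. The region at chr2:18881517-18884234 had pileups of 562, 609 and 572 and fold enrichments of 7.26, 11.4 and 10.02, the highest mean fold enrichment of all. Its summits lay within 13 bp of each other inside BAM7, a beta-amylase family gene, and it reached into ROPGEF4, which encodes an activator of ROP GTPases. The region at chr5:26749407-26754431, with pileups of 579, 578 and 523, overlapped ABA1, which encodes zeaxanthin epoxidase of abscisic acid synthesis. Its summits lay within 6 bp of each other, 617 bp from the gene. The region at chr3:23227387-23233852, with pileups of 540, 578 and 513, covered AT3G62810 and reached into DRB4, a gene for a double-stranded RNA-binding protein, and AUD1. Within each replicate the region at BAM7 and that at ABA1 were both higher than the one at AT3G62810 or level with it.

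On chromosome 1 the tallest region of the left end, at chr1:107407-114783, had pileups of 526, 554 and 486. It overlapped AT1G01260, with the synonym JAM2, a bHLH factor of jasmonate signalling, and also CYP703A2 and CNX3. The tallest region of the right end, at chr1:29752831-29768952, had 539, 554 and 505 fragments. It was also the widest of all 1519, at 16122 bp, overlapped 5 protein-coding genes and was listed as 2, 1 and 2 peaks in replicates 1, 2 and 3. The summits used here lay up to 9956 bp apart, so they mark different peaks within it.

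On chromosome 4 the tallest region of the left end, at chr4:218721-222643, had pileups of 445, 464 and 422 and overlapped ATMYC1, a bHLH gene, and BAM2, here a beta-amylase gene. That of the right end, at chr4:17767648-17778425, had 525, 516 and 443 and overlapped HAT22, a homeodomain-leucine zipper gene, and XTH7, a cell wall xyloglucan enzyme gene. On the left of chromosome 5 the tallest region, chr5:30946-35094, had 453, 410 and 318 fragments, the lowest of the 10 tallest regions in replicates 2 and 3, and overlapped AT5G01090 and FRB1. By fold enrichment, a ranking added after the values were seen, the left ends of chromosomes 2, 3 and 5 were led by other regions. On chromosome 2 this was chr2:646117-652908 at LOV1, a NAC transcription factor gene of flowering time control, with fold enrichments of 6.68, 9.08 and 6.32.

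The outermost region of each end lay 3.2 to 57.7 kb from the tip. The closest was chr3:23456356-23456955, 3.2 kb from the right tip of chromosome 3 and inside BB (BIG BROTHER), a ubiquitin ligase gene that limits organ size. It was low, with pileups of 113, 96 and 86 and rank 5837 of 5957. The farthest was chr4:55905-59434, with 220, 131 and 102 fragments, at HAM3, a GRAS-family gene of shoot meristem maintenance. Between them lay chr1:11587-15455 at NGA3, a gene for a B3-domain transcription factor of leaf and style development, with 277, 249 and 224 fragments. Apart from the ribosomal region of chromosome 2, NGA3 had the highest pileup of the outermost regions in all 3 replicates. The remaining 6 were lower, with pileups of 125 to 176 in replicate 1. Replicate 2 gave 91 to 150 for them and replicate 3 gave 94 to 122.

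After the region of 16122 bp the widest were chr5:26490893-26503610 (12718 bp), chr2:18907558-18919555 (11998 bp), the HAT22 region of chromosome 4 (10778 bp) and chr1:28546251-28556072 (9822 bp). All of these lay on right ends. The second overlapped 6 protein-coding genes, among them GATA5, a GATA transcription factor gene, and SHI, a gene of the SHORT INTERNODES family, with pileups of 346, 389 and 305. The third overlapped PIP1B, an aquaporin gene, and CYP86A8, a cytochrome P450 gene of cutin synthesis, with 530, 453 and 344 fragments. The last covered PETE1, which encodes plastocyanin, and CDSP32, with 460, 439 and 374. Each of these was listed as several peaks in at least 1 replicate, so the number of separate sites within them is not fixed by the lists.

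Genes of the stomatal lineage were taken from a list of 28 genes, of which 8 lie at the ends. A reproducible region was within 1 kb of 6 of these 8 (75%), namely MUTE, TMM, ERL1, SDD1, HDG2 and MYB88, and of 14 of the 20 in the interior (70%). The corresponding share of all protein-coding genes was 41.4% at the ends and 29.1% in the interior. Both values were below those of the list, so the list's share was not particular to the ends. Only 8 list genes lie at the ends, MUTE itself is 1 of them, and the list was chosen with earlier results of these data known. No excess over all genes is therefore read from it. MPK6, a MAP kinase, and SCAP1, a guard cell transcription factor gene, had a region in some replicates only.

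TMM encodes a receptor-like protein that restricts stomatal spacing with ERECTA-family receptors. Its region, chr1:30126962-30130568, had pileups of 495, 513 and 473 fragments and fold enrichments of 6.76, 10.3 and 8.85, the eighth highest mean. Summits lay 95, 75 and 63 bp from the gene in replicates 1, 2 and 3. The region also overlapped SUS2 and CBSX4, so it cannot be assigned to TMM alone. ERL1, an ERECTA-family receptor kinase, had 2 regions. The one at chr5:24994793-24997375 had pileups of 411, 476 and 405, with summits 281 to 295 bp outside the gene. The one at chr5:25001331-25003212 had 385, 292 and 240, with all 3 summits inside the gene, and also overlapped AT5G62240. The order of the pair was the same in every replicate, and it was narrowest in replicate 1. ERL1 is also close to the threshold of 2 Mb.

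SDD1 encodes a subtilisin-like protease that lowers stomatal density. Its region at chr1:1060780-1065142 had pileups of 494, 509 and 363 fragments and summits 227, 119 and 103 bp from the gene. It also overlapped IAA10 and ABCC5, so it cannot be assigned to SDD1 alone. HDG2 encodes a homeodomain protein that promotes meristemoid differentiation. It had a low region at chr1:1511662-1513805 with 202, 120 and 126 fragments, which also overlapped AT1G05210 and AT1G05220. A higher one at chr1:1515902-1520767 had 466, 469 and 417, but its summits lay 1171 to 1194 bp from HDG2 and it overlapped AT1G05240 as well. MYB88, which encodes a MYB factor that limits guard mother cell division, had 2 weak regions with all summits inside the gene. The stronger, at chr2:807141-808063, had 216, 159 and 141 fragments.

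From a list of 48 cell cycle genes 12 lie at the ends, and 7 of them (58.3%) had a reproducible region within 1 kb, against 20 of 36 in the interior (55.6%). Of all protein-coding genes 41.4% had one at the ends and 29.1% in the interior. With only 12 list genes at the ends, and a list chosen with earlier results of these data known, no excess over all genes is read from it. These 7 were SMR4, CYCD3;2, CYCD5;1, CYCD6;1, CYCD7;1, CDKB2;1 and CYCA2;4. WEE1, a kinase that inhibits cyclin-dependent kinases, and CYCD4;1 had a region in some replicates only. No listed peak was found within 1 kb of SIM, a cyclin-dependent kinase inhibitor gene, CYCB1;1 or CYCB1;2, both mitotic cyclin genes, which shows only that none was called at this depth and cutoff.

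SMR4 encodes a SIAMESE-related inhibitor of cyclin-dependent kinases. Its region at chr5:440843-443506 overlapped no other protein-coding gene and had pileups of 309, 300 and 243 fragments, with fold enrichments of 3.91, 5.26 and 4.21. Summits lay 247, 213 and 222 bp from the gene in replicates 1, 2 and 3. On the same end, CYCD7;1, a D-type cyclin gene active before the last division of the lineage, had a region at chr5:415918-419492 with 308, 242 and 203 fragments, 299 to 325 bp from the gene. That region also overlapped UNE18 and OHP. The pileups of both were similar in replicate 1, and SMR4 was the higher in replicates 2 and 3.

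CYCD6;1, another D-type cyclin gene, had 333, 325 and 271 fragments at chr4:1431504-1434071, with all summits inside the gene. That region also overlapped AT4G03260. CYCD3;2 had 342, 362 and 285 fragments at chr5:26832689-26839060, with summits 435 to 453 bp from the gene, in a region of 6372 bp that also overlapped SKIP2. CYCD5;1, known for a role in endoreduplication, had the lowest of the D-type cyclin pileups with 184, 138 and 131 fragments at chr4:17678937-17682336, inside the gene. CYCD3;2, CYCD6;1 and CYCD7;1 exceeded it in every replicate. CYCA2;4, an A-type cyclin gene, had 2 regions. The higher, at chr1:30216452-30217901, had 318, 278 and 192 fragments and lay 53 to 76 bp from the gene, and it also overlapped AT1G80380. CDKB2;1, a mitotic cyclin-dependent kinase gene, had 2 weak regions with 128 and 156 fragments in replicate 1, 85 and 115 in replicate 2 and 87 and 86 in replicate 3. The first overlapped AT1G76530 and not CDKB2;1, with summits 767, 1041 and 315 bp from CDKB2;1. The second overlapped CDKB2;1 and AT1G76550.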

How the data were processed

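Chromatin of MUTE-GFP seedlings was precipitated with an antibody against GFP, and 3 IP samples were grouped by their titles. Reads were aligned with Bowtie2 to TAIR10, per the submitters' processing notes, which give no versions. The authors ran MACS 2.1.0.20140616 separately on each replicate, with the equally numbered input as control, per the file headers. The q-value cutoff was 0.05, duplicates beyond 1 fragment per position were dropped, and the local background was taken over 1000 and 10000 bp, per the file headers. The deposited pileup is a signal of stacked IP fragments. The deposited fold enrichment is the authors' ratio of pileup plus 1 to background plus 1, from which the background was back-computed. The −log10 p-value and −log10 q-value were deposited under lost headings and told apart by their place in MACS output. Scores per peak are the authors' own.

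Regions were built in Python 3.11.15 with pandas 2.3.3, and exact tests were run in SciPy 1.17.1. A region took its highest peak of each replicate. Medians at the ends and in the interior were compared within each list, with a sign-flip test over 3 log2 ratios. The procedure was tested on simulated data in which planted sites never touched, so that test did not cover the effect of merging neighbours on width. Genes came from the RefSeq table of TAIR10.1, a revision of TAIR10 with the same chromosomes 1 to 5. All 76 list genes matched it. It has no strand, so genes within 1 kb on either side were counted in place of the planned 1 kb before the start, and the nearest gene body in place of the nearest gene start. Regions named singly were the tallest and the outermost of each end, the 5 widest, and those near list genes. The regions, lists and rules were chosen with earlier results of these data known. The planned search for sequence words was not run, since a genome sequence was not used here. Intervals cover counting error only.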

Additional observations from a re-analysis of the deposited data

How the results depend on the processing

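The density ratio of ends over interior stayed above 1 in all 16 alternatives, between 1.27 and 1.91, around the value of 1.70. It was 1.87 with ends of 1 Mb, 1.63 with −log10 q of at least 10, 1.37 against interior bins with at least 200 protein-coding genes, 1.27 against the next 2 Mb inward, 1.91 without the left ends of chromosomes 2 and 4, and 1.34 per protein-coding gene. Per gene and against gene-rich bins together, a setting added after the data were seen, it was 1.30. The pileup ratio of 0.977 was 0.956 with ends of 1 Mb and 0.959 with ends of 3 Mb, and it reversed to 1.01 against the next 2 Mb inward. The fold enrichment ratio of 0.992 became 1.03 there. The covered width ratio of 1.15 stayed above 1 in all 16 alternatives. It was 1.10 where fold enrichment had to reach 3, 1.10 against the next 2 Mb inward, 1.09 over all peaks and 1.11 in single-peak regions, the last added after the data were seen. There were 870 end regions with ends of 1 Mb, 773 with −log10 q of at least 10 and 292 where fold enrichment had to reach 3. The cause of these shifts beyond fewer peaks or shorter ends was not tested. Leaving out each replicate gave 1621 to 2196 end regions, density ratios of 1.67 to 1.74, pileup ratios of 0.977 to 0.984, fold ratios of 0.991 to 1.00 and width ratios of 1.12 to 1.15. The sign-flip test cannot pass 0.05 with 3 replicates, so only sizes can be compared.

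With 20173429 to 30075453 kept IP fragments, a stretch without a listed peak is one where none was called, not an unbound one. Ends and interior were compared within each replicate throughout. No paired analysis was possible because, of the equally numbered samples, the inputs have no peak list here to set beside the IP.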
